A study of Homo sapiens with 4 samples.

Results

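The transcripts described here encode the machinery that drives and carries out cell division: cyclins and cyclin-dependent kinases (CDKs), their inhibitors, the CDC and CDCA genes, the anaphase-promoting complex, centromere and kinetochore proteins, mitotic kinases and the spindle checkpoint, and the kinesin motors. They were taken from the deposited gene table by their symbols, using a fixed pattern of symbol beginnings such as CDK, CCN, CENP and KIF plus named genes such as PLK1, TTK, NUF2, TOP2A and MKI67, and leaving out KIF13A and CDC42. The pattern found 93 of the 6434 genes in that table. The pattern uses no measured value. A pattern on symbols also takes in proteins that share a name but do other work, among them CDC5L and CDC40 of the splicing machinery and CDC73 of a transcription elongation complex. Of the 93, 14 were listed as having such a main role outside the cell cycle engine. The list is not complete and leaves out, among others, KIF5B, CCNO and MAD2L2.

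Cyclins bind and switch on CDKs in a fixed order, so that DNA is copied before mitosis begins. At mitosis the kinetochore ties each chromosome to spindle microtubules, checkpoint proteins hold the anaphase-promoting complex until every chromosome is attached, and kinesins build the spindle and complete cytokinesis. Many of these transcripts are made mainly from S phase to mitosis, which makes them a standard readout of dividing cells. N1-methyladenosine (m1A) is an adenosine carrying a methyl group that blocks normal base pairing, and it can occur in messenger RNA.

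The series asked what share of each transcript carries m1A, by comparing RNA before and after an antibody against m1A had removed methylated molecules. All samples came from HepG2, an established line from a human liver tumour, with no drug, transgene or time course. The input samples (n = 2) held RNA after 2 rounds of poly(A) selection, and the supernatant samples (n = 2) held what the antibody left behind. RNA was labelled with biotin and read on Affymetrix arrays, and the labels do not say whether the replicates came from separate cultures, so the spread between them may be technical.

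Gene values are deposited intensities on a linear scale in 4 columns, named supernatant and input with the letters A and B. The letters were not matched to the replicate numbers of the samples. The table lists 5210 genes with a single m1A peak, called one-peak genes here, and 1224 genes without one, called non-m1A genes. Over all genes, column medians were 171 in both inputs and 177 in both supernatants. Of 25 hepatocyte markers, 5 were in the table, and their median stood at the 5.77th percentile of input intensity. APOE, the gene of an apolipoprotein, read 31.9 ± 1.27 in the input (SD, n = 2). Summed over those markers, inputs gave 159.0 and 213.0 and supernatants 161.0 and 200.0. None was at 0, and albumin was not analysed here. Of the fibroblast, leukocyte and endothelial markers, 1 of 6, 1 of 5 and 0 of 4 were in the table. The fibroblast marker COL1A1 stood at the 13.7th percentile and the leukocyte marker CD68 at the 8.42th, both above the hepatocyte median. The hepatocyte marker FOXA1 stood highest, at the 34.9th. These levels therefore do not identify the line. The part of these markers in the results was not tested.

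Promoters were looked at because transcripts made late in the cell cycle are known to share short promoter elements, a feature the choice by symbol did not use. A list of transcripts made in S, G2 or M phase, written from general knowledge, covers 38 members, called late members here. The list need not be complete, so the other members are not a set known to be made at other times. RefSeq promoter windows of GRCh38.p14, from 250 bases before to 50 bases after the annotated start, were found for 85 of the 93 members and for 35 of the 38 late ones. The cell cycle genes homology region (CHR) was searched as TTTGAA and the CCAAT box as CCAAT, each on both strands, reading TTCAAA and ATTGG on the opposite one, and matches that shared a base were both counted. Of 42 windows of late members, 57.1% held the CHR letters, against 16.0% of 75 windows of the other members, 11.1% of 6944 windows of genes in the gene table and 15.2% of all 35116 windows. The CCAAT letters stood in 71.4% of the late windows, in 33.3% of the other members' windows and in 35.8% of the gene table's. Both motifs together were in 45.2%, 8.0% and 4.68% of these windows. Counted by gene, 23 of the 35 late members had the CHR letters and 18 had both motifs in 1 window. A match is a description of letters and not a site of binding, and the windows have no bearing on the antibody step.

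**Figure D1:**
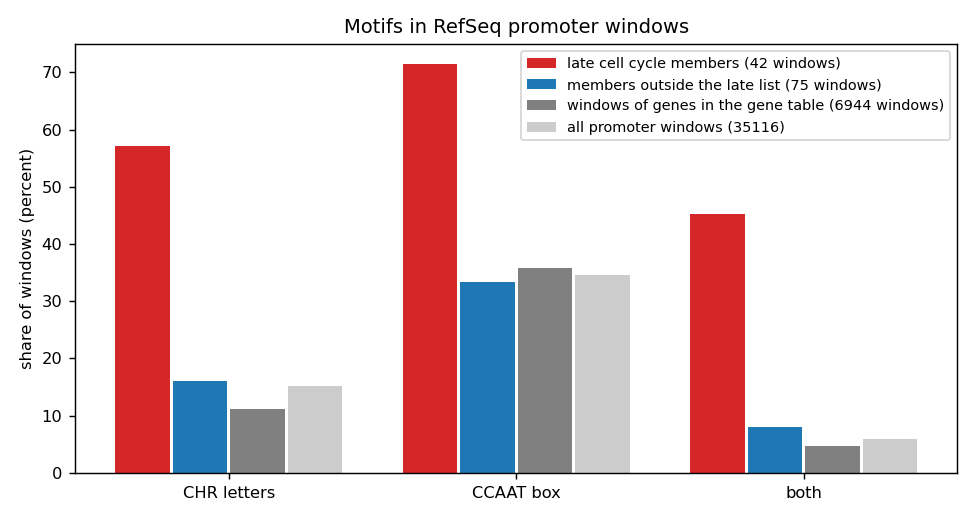
Share of RefSeq promoter windows (percent, vertical axis) that hold the CHR letters, the CCAAT letters or both, in late members (42 windows), other members (75), genes of the gene table (6944) and all genes (35116). The bars of the late members are the tallest in each of the 3 classes, at 57.1%, 71.4% and 45.2%.

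The 130 bases before the start are shown for the 4 late members with the highest input intensity among those with a single window and both motifs in this stretch, with the CHR and CCAAT letters in capitals. They are CCNB2, which encodes cyclin B2, at chr15:59105016-59105145 on the plus strand; CDC20, an activator of the anaphase-promoting complex, at chr1:43358851-43358980 on the plus strand; KIF11, a motor that pushes the spindle poles apart, at chr10:92593000-92593129 on the plus strand; and KIF23, a motor of the central spindle, at chr15:69414219-69414348 on the plus strand. Each stretch lies just upstream of the first exon and is read 5′ to 3′ on the gene's own strand.
CCNB2: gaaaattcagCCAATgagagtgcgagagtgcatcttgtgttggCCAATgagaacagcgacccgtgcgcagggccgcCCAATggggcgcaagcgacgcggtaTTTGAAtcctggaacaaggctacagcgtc
CDC20: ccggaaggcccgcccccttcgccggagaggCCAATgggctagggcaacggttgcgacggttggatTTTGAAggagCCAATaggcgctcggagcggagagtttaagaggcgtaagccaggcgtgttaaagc
KIF11: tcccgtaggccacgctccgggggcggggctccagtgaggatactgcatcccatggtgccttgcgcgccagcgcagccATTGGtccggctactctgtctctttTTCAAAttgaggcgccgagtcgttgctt
KIF23: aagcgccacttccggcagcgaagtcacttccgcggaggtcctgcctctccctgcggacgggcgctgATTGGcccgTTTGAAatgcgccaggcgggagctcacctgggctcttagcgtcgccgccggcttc

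The same stretch is shown for the 3 members with the smallest unadjusted p in the comparison of supernatant with input, all of them late members: the mitotic kinase gene PLK1 at chr16:23678759-23678888 on the plus strand, the checkpoint kinase gene BUB1 at chr2:110678064-110678193 on the minus strand, and the kinetochore gene NUF2 at chr1:163321824-163321953 on the plus strand. PLK1 held both motifs in this stretch, BUB1 the CCAAT letters on both strands without the CHR letters, and NUF2 neither. NUF2 did hold the CHR letters elsewhere in its window and counts among the 23 late members with them.
PLK1: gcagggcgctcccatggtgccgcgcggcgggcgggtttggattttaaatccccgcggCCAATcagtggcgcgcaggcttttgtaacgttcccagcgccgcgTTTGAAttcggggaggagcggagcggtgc
BUB1: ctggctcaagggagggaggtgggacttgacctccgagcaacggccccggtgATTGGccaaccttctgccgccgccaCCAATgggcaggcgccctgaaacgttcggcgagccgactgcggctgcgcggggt
NUF2: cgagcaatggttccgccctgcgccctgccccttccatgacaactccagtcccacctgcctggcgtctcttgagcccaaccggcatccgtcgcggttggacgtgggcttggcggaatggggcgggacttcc

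The gene table holds 80 of the 93 members as one-peak genes, 86.0% against 81.0% of all genes in it. The 13 listed without a peak were the cyclin genes CCNA2, CCNG1, CCNH and CCNO, the kinase genes CDC7 and CDK8, the centromere and centriole genes CENPI, CENPJ, CENPK, CENPL and CENPW, ANAPC10 and KIF24. Of 33 cell cycle genes picked as landmarks, 25 were in the table, and CCND1, CDKN1A, CDKN2A, CDC25C, AURKA, TPX2, ANAPC11 and MKI67 were not analysed here. Symbols are those of the table, and 92 of the 93 are current, CENPJ being an older symbol of CPAP.

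The members' probes were bright. Their median input intensity was 343, at the 69.5th percentile of the table, and 65 of the 93 (69.9%) lay above the table's median of 171. One-peak members had a median of 367 against 216 for all one-peak genes, and non-m1A members 149 against 44.8 for all non-m1A genes. A mean intensity of at least 32 over the 4 columns was reached by 91 members, all but CENPI and KIF24. Brightness also depends on the probes, so it does not order these transcripts by abundance, and the share of dividing cells cannot be told apart from the RNA per cell.

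No cell cycle, mitosis or kinesin transcript passed the test for depletion or enrichment. On log2 intensities, limma called 0 of the 93 members lower in the supernatant (0.0% of all genes) and 0 higher (0.0155% of all genes) at a Benjamini-Hochberg adjusted p under 0.05 over all 6434 genes. At an unadjusted p under 0.05 it also found 0 lower and 0 higher, against 0.622% and 1.4% of all genes. The smallest unadjusted p of a member was 0.0771, for NUF2, and the lowest adjusted p was 1.0. An exact permutation test of 2 columns against 2 cannot give a two-sided p under 0.333.

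The changes were small and the errors of like size. The median log2 change of the members, supernatant minus input, was 0.03, and that of all genes was 0.04. Members ranged from -0.18 (CENPO) to 0.29 (PLK1) with quartiles of -0.02 and 0.09, and 66 (71.0%) lay within 0.1 of 0, against 65.4% of all genes. The median standard error of a member was 0.102, from 0.0847 to 0.251, and the median half-width of a 95% interval was 0.272. These come from the fit without pairing, which counts differences between the column letters as error. With the letter fitted as a block the median standard error was 0.0716, from 0.0677 to 0.111. Of the 93, 65 lay above 0 and 28 below as deposited. With each column recentred on the median of the non-m1A genes these numbers turned to 34 and 59, with a median of -0.03 for members and for all genes alike.

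**Figure D2:**
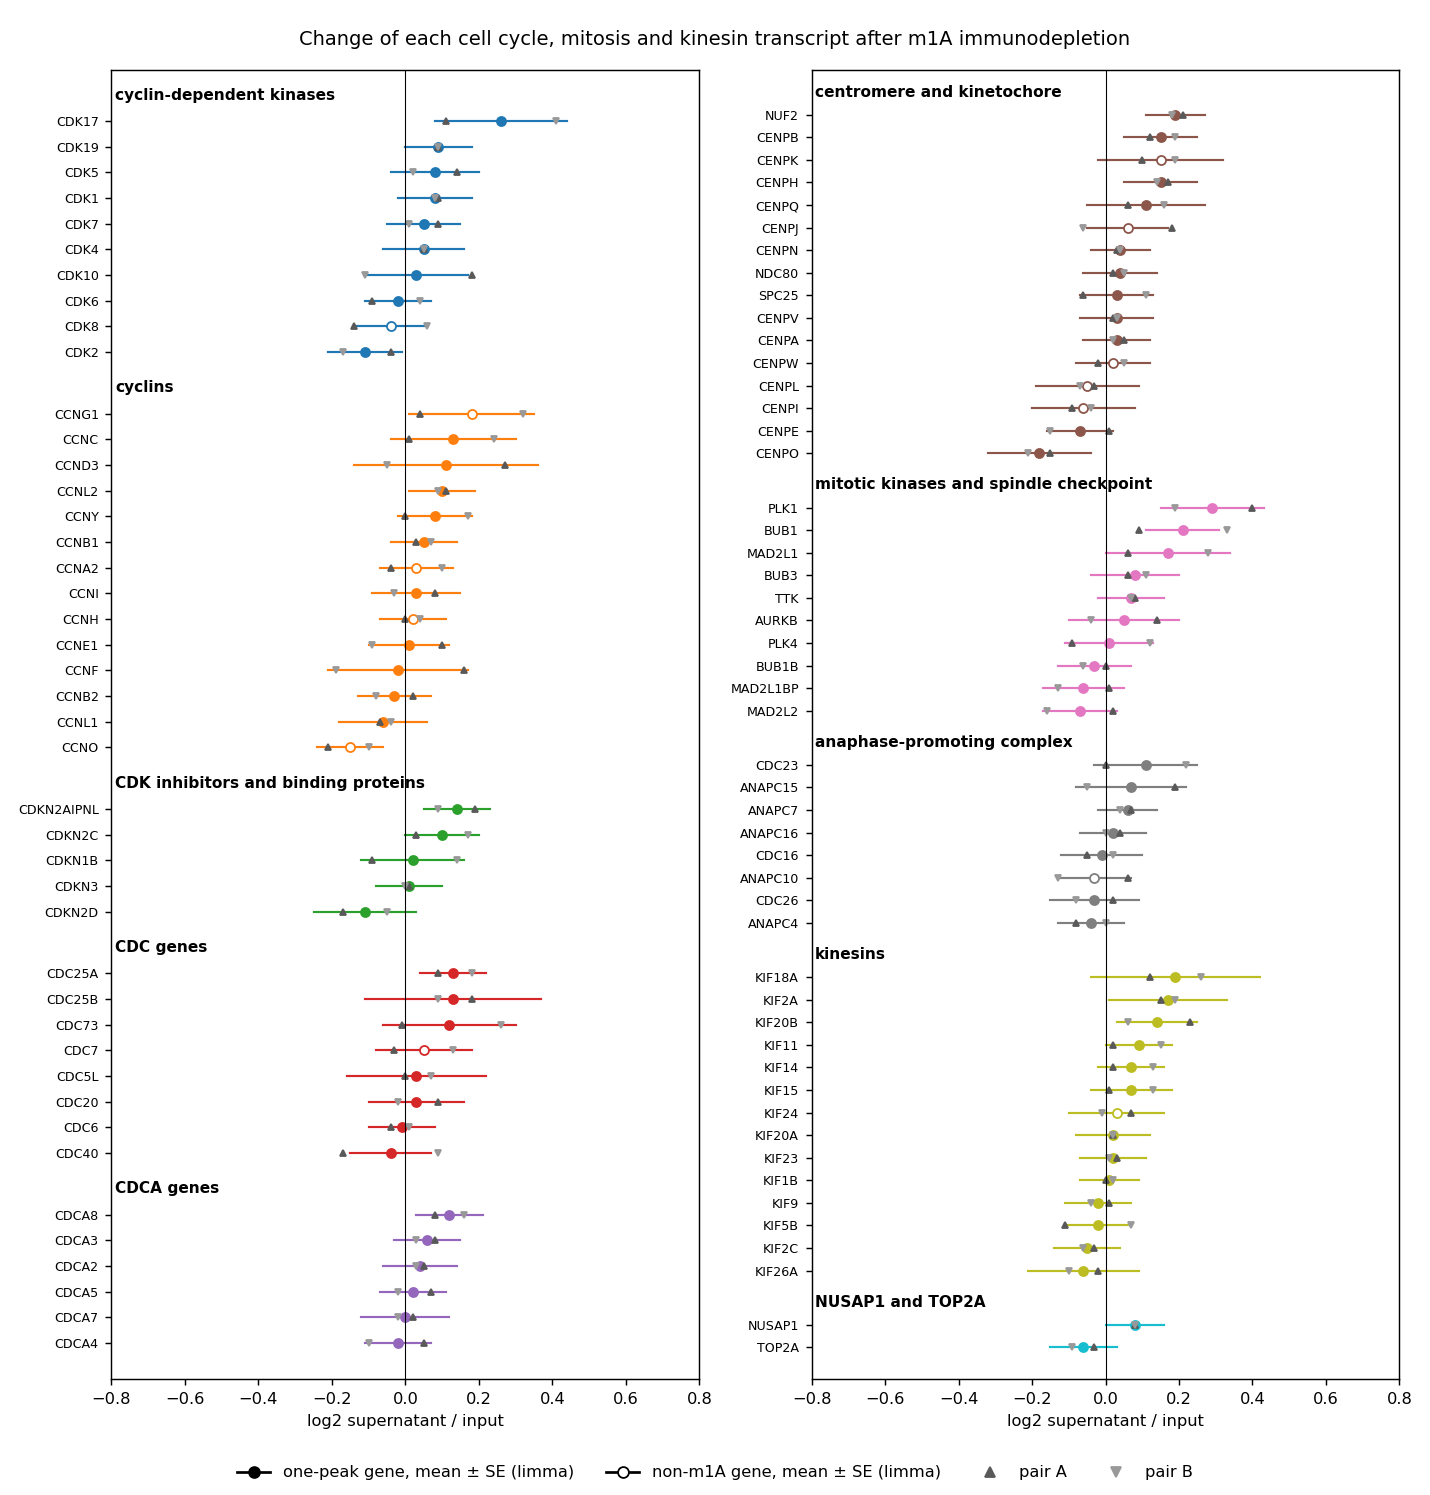
Log2 supernatant over input for each of the 93 members (horizontal axis, log2 scale), grouped by role. Circles are limma estimates with bars of 1 standard error (filled for one-peak genes, open for non-m1A genes), and triangles are the ratios of the pairs A and B; most circles lie within 0.1 of 0, PLK1 is farthest right and CENPO farthest left.

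Counting members whose 2 supernatants both lay on 1 side of both inputs gave 4 lower (4.3%, against 6.37% of all genes) and 21 higher (22.6%, against 16.6% of all genes), and the other 68 overlapped. The 4 lower ones were ANAPC4, CDK2, KIF2C and CCNO. After recentring on the non-m1A genes the counts became 18 lower and 4 higher, against 17.2% and 6.71% of all genes. After quantile normalization they were 13 and 11, against 12.1% and 9.09%. Late members gave 1 lower and 12 higher of 38 as deposited, 6 and 3 after recentring, and 3 and 6 after quantile normalization.

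Among the CDKs, intensities of the core cell cycle kinases differed little between supernatant and input, and none of the 10 members passed. Values are given for the columns A and B in that order. CDK1, the kinase that starts mitosis, had supernatants of 1130.5 and 1049 and inputs of 1059.9 and 994, a log2 change of 0.08 ± 0.10 (SE). The higher supernatant lay above both inputs and the lower between them. CDK2, which acts at the start of DNA replication, read 582 and 582 against 598 and 656 (-0.11 ± 0.10), so its groups did not overlap. The G1 kinase gene CDK4 had supernatants of 1135 and 1020.2 and inputs of 1095 and 982 (0.05 ± 0.11), and CDK6, its close relative, had 160.3 and 171 against 170.4 and 166 (-0.02 ± 0.09). Both overlapped between groups.

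CDK17, a CDK-related kinase of the PCTAIRE family, had the second highest estimate of all members. Its supernatants read 85.4 and 76.8 and its inputs 78.9 and 57.9, a log2 change of 0.26 ± 0.18 (SE). Supernatant B lay below input A, so the groups overlapped, and the change was 0.48 without input A and 0.04 without input B. The other CDKs ran from -0.04 for CDK8, the kinase of the Mediator complex, to 0.09 for its paralog CDK19.

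The 14 cyclins had a median log2 change of 0.03, with 0 called and 9 within 0.1 of 0. CCNB1, the cyclin B1 gene, read 1544 and 1535 in the supernatants against 1511 and 1467 in the inputs, a change of 0.05 ± 0.09 (SE) without overlap. The cyclin A2 gene CCNA2, a non-m1A gene, read 462 and 454 against 474 and 425 (0.03 ± 0.10), and the cyclin E1 gene CCNE1 read 148 and 150.4 against 137 and 160.2 (0.01 ± 0.11). Both A2 and E1 overlapped between groups.

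The cyclins farthest from 0 were both non-m1A genes. CCNG1, a cyclin gene induced by p53, had supernatants of 283 and 256 and inputs of 276 and 205, a log2 change of 0.18 ± 0.17 (SE), with overlap. CCNO, a cyclin gene of multiciliated cells, had 48.7 and 48.4 against 56.3 and 51.7, a change of -0.15 ± 0.09, and both supernatants lay below both inputs. CCND3, the cyclin D3 gene, had the widest error of all members (0.11 ± 0.25), with supernatants of 264 and 329 and inputs of 219 and 340.0.

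CDK inhibitors and the proteins named after them numbered 5. CDKN1B, the p27 gene, read 446 and 422 in the supernatants against 475 and 384 in the inputs, a log2 change of 0.02 ± 0.14 (SE). CDKN2D, an INK4 inhibitor of CDK4 and CDK6, read 192 and 232 against 216 and 241 (-0.11 ± 0.14). Groups overlapped in both genes. The INK4 gene CDKN2C (0.10 ± 0.10) and CDKN2AIPNL (0.14 ± 0.09) had both supernatants above both inputs, and CDKN3, a phosphatase gene, stood at 0.01 ± 0.09.

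CDC genes outside the anaphase-promoting complex gave 8 members between -0.04 (CDC40) and 0.13, and 0 passed. CDC20 read 619 and 686 in the supernatants against 582 and 697 in the inputs, a log2 change of 0.03 ± 0.13 (SE). CDC25A, a phosphatase gene that activates CDKs early in the cycle, read 144 and 151 against 136 and 133 (0.13 ± 0.09), without overlap. CDC25B, its counterpart at entry into mitosis, read 319.8 and 429.9 against 283 and 403 (0.13 ± 0.24), with overlap and with both B columns above both A columns. CDC6, which loads the replicative helicase, stood at -0.01 ± 0.09, and CDC7, a kinase gene of replication start without a peak, at 0.05 ± 0.13.

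All 6 CDCA genes lay between -0.02 (CDCA4) and 0.12 (CDCA8, the gene of borealin in the chromosomal passenger complex). CDCA5, which encodes the cohesion factor sororin, stood at 0.02 ± 0.09 (SE), and CDCA7 at -0.00 ± 0.12. Only CDCA8 of the 6 had groups that did not overlap, with supernatants of 211 and 218 above inputs of 199 and 195.

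The 16 centromere and kinetochore genes held the member with the lowest estimate and the one with the smallest p, and 0 passed. NUF2, a subunit of the NDC80 complex that grips microtubules, read 408 and 401 in the supernatants against 353 and 355 in the inputs. Both supernatants stood above both inputs, with a log2 change of 0.19 ± 0.08 (SE). Its partners in that complex did not show this separation: NDC80 read 553 and 514 against 546 and 495 (0.04 ± 0.10), and SPC25 read 324 and 356 against 337 and 329 (0.03 ± 0.10). Whether NUF2 differed from its partners was not tested.

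CENPO, a subunit of the inner kinetochore, had supernatants of 74.9 and 85.5 and inputs of 83.0 and 99.1, a log2 change of -0.18 ± 0.14 (SE). It was lower in the supernatant of each letter, but supernatant B lay above input A. The change was -0.31 without input A and -0.05 without input B. CENPA, the histone that marks the centromere, read 295 and 295 against 286 and 292 (0.03 ± 0.09), and CENPE, a kinetochore motor, 276 and 256 against 275 and 285 (-0.07 ± 0.09). CENPA did not overlap and CENPE did. CENPK, an inner kinetochore gene without a peak, read 413 and 345 against 385 and 302 (0.15 ± 0.17), and the likewise peakless CENPI, a dim gene here, 11.4 and 13.8 against 12.2 and 14.1 (-0.06 ± 0.14). Both overlapped between groups.

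Mitotic kinases and checkpoint genes were the role group with the widest spread of changes (SD 0.121 over 10 genes, against 0.0856 over all members). The SD was 0.1 over all one-peak genes and 0.208 over all genes, and the median standard error of these 10 was 0.115. PLK1, a kinase needed for entry into and exit from mitosis, read 133 and 143 in the supernatants against 100.4 and 125 in the inputs. Both supernatants lay above both inputs, and the log2 change was 0.29 ± 0.14 (SE), with a 95% interval from -0.08 to 0.67. Without input A the change was 0.13 and without input B 0.46. BUB1, a checkpoint kinase of the kinetochore, read 431 and 462 against 404 and 366, also without overlap (0.21 ± 0.10, 95% interval -0.06 to 0.49). MAD2L1, which encodes the MAD2 protein that restrains CDC20, read 638 and 563 against 613 and 462 (0.17 ± 0.17), with overlap.

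The remaining checkpoint genes lay nearer to 0. TTK, the kinase that starts checkpoint signalling, read 377 and 391 against 356 and 373 (0.07 ± 0.09, SE), with supernatants just above inputs. BUB3, a scaffold of the checkpoint, read 1509 and 1352 against 1445 and 1255 (0.08 ± 0.12), and BUB1B, the BubR1 gene, 749 and 691 against 749.8 and 719 (-0.03 ± 0.10). BUB3 and BUB1B overlapped between groups. AURKB, the kinase of the chromosomal passenger complex, read 743 and 827 against 674 and 850.0 (0.05 ± 0.15), and MAD2L2, a MAD2 relative of DNA repair, 812 and 803 against 800.4 and 897 (-0.07 ± 0.10). Both also overlapped.

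The anaphase-promoting complex marks cyclins and securin for destruction. Its 8 subunit genes, counting CDC16, CDC23 and CDC26 here by their function, ran from -0.04 (ANAPC4) to 0.11 (CDC23), with a median of 0.00 and 7 within 0.1 of 0. ANAPC4 read 447 and 451 in the supernatants against 473 and 452 in the inputs (-0.04 ± 0.09, SE), apart by a narrow margin. ANAPC7 lay apart the other way, with 342 and 338 against 325 and 329 (0.06 ± 0.08).

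Kinesins numbered 14, of which 9 work on the mitotic spindle or in cytokinesis. KIF11 read 612 and 646 in the supernatants against 601 and 583 in the inputs (0.09 ± 0.09, SE), without overlap. KIF23 read 478 and 495 against 469 and 492 (0.02 ± 0.09), with overlap. KIF2C, a motor that takes microtubules apart at the centromere, read 901 and 869.6 against 922 and 906 (-0.05 ± 0.09), both supernatants below both inputs.

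KIF18A, a motor that steadies chromosomes on the spindle, had the largest change among kinesins, at 0.19 ± 0.23 (SE). Its supernatants read 95.6 and 74.0 and its inputs 87.8 and 61.8, and both A columns lay above both B columns. Of the 9 mitotic kinesins, 8 were higher in the supernatant in both letters (40.3% of all genes were) and KIF2C lower in both (14.4% of all genes). After recentring on the non-m1A genes 2 were higher in both and 3 lower in both, against 17.8% and 34.3% of all genes. After quantile normalization 4 and 2 were, against 24.0% and 26.2%. The 5 other kinesins, among them the cargo motors KIF5B (-0.02 ± 0.09) and KIF1B (0.01 ± 0.08), lay within 0.1 of 0. TOP2A, the topoisomerase that untangles chromosomes, read 1657 and 1702 against 1693 and 1806 (-0.06 ± 0.09), with overlap, and NUSAP1, a spindle protein gene, stood at 0.08 ± 0.08.

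The ratios of the lettered pairs were compared because the authors' ratio is the mean of both. In 44 members the supernatant was higher than its input in both pairs (47.3%, against 40.3% of all genes), in 12 lower in both (12.9%, against 14.4%), and in 37 the pairs were opposed. After recentring, 14 were higher (15.1%, against 17.8% of all genes) and 36 lower in both (38.7%, against 34.3%). As a description across genes, which are not independent replicates and share the same 4 arrays, the pair ratios had a Pearson r of 0.197 and a Spearman rho of 0.186 over the 93 members. Over all genes these were 0.153 and 0.0628. The 80 one-peak members gave 0.203 for each, against 0.121 and 0.0605 over all one-peak genes. The median absolute difference between the pairs was 0.0922 in members and 0.119 in all genes, on the log2 scale.

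**Figure D3:**
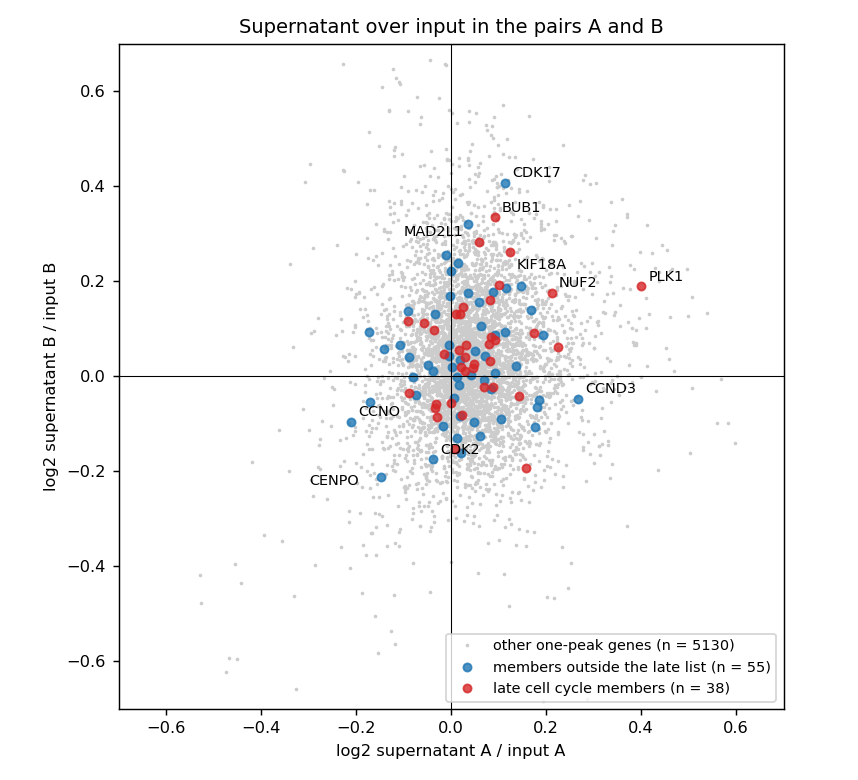
Log2 supernatant over input in pair A (horizontal) against pair B (vertical), both log2 scales, for late members (red, n = 38), other members (blue, n = 55) and other one-peak genes (grey, n = 5130, points beyond 0.7 not shown). The members lie within the grey cloud around 0, with PLK1 to the right and CDK17 and BUB1 at the top.

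The members differed more between the letters of the columns than between supernatant and input. The median absolute log2 difference between letters B and A was 0.105 over the members, against 0.057 between supernatant and input, and it was the larger of the pair in 63 of 93 members (67.7%, against 69.8% of all genes). A limma comparison of B with A columns, fitted together with supernatant against input, was added after the data were seen. In it 0 members passed at an adjusted p under 0.05 (0.0% of all genes). At an unadjusted p under 0.05, 12 were lower in B (12.9%, against 12.2% of all genes) and 8 higher (8.6%, against 11.6%), shares near those of the whole table. Estimates farthest from 0 were those of CCND3 (0.48 ± 0.10, SE), CDC25B (0.47 ± 0.07), KIF18A (-0.44 ± 0.08) and CDC5L (-0.36 ± 0.07). These errors leave out the difference between supernatant and input, whereas those of the main fit count letter differences as error. For supernatant against input, the standard error of CCND3 was 0.25 in the main fit and 0.10 with the letter as a block. The sources used here do not give what the letters stand for, and their part in the comparison was not tested.

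**Figure D4:**
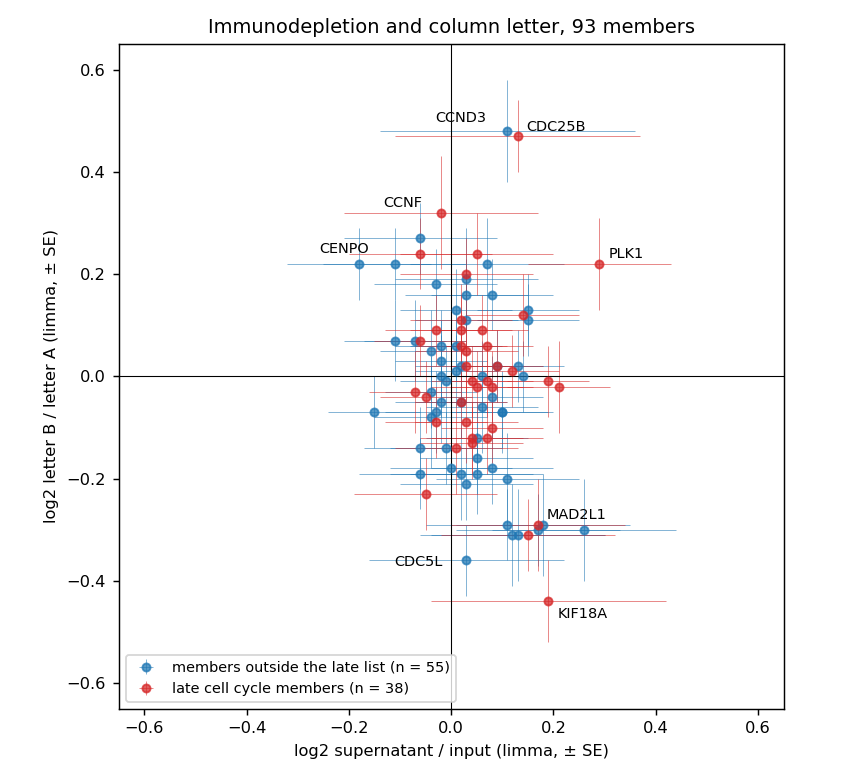
The 93 members by limma estimate of log2 supernatant over input (horizontal) and of log2 letter B over letter A (vertical). Bars are 1 standard error, horizontal ones from the fit without pairing and vertical ones from the fit with the letter as a block. Red marks late members and blue the others. The points spread further along the vertical axis, from -0.44 (KIF18A) to 0.48 (CCND3), than along the horizontal one, from -0.18 to 0.29.

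The study's own measure is the methylated fraction. In the authors' deposited table it is 1 minus the mean supernatant/input ratio divided by a constant of 1.29, which is the average ratio over non-m1A genes. The 80 one-peak members had a median fraction of 0.21 in the authors' deposited table, with quartiles of 0.17 and 0.23, the same to 2 decimals as all 5210 one-peak genes. Fractions between 0.10 and 0.30 were given for 77 of the 80 (96.2%, against 93.8% of all one-peak genes). Late members had a median of 0.20 and the other members 0.21.

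The authors' deposited table gave the highest fraction among members to CENPO, 0.32, followed by 0.28 for CDK2 and for CDKN2D and 0.26 for CENPE, MAD2L2, MAD2L1BP, CCNL1, TOP2A and KIF26A. Its lowest fractions were 0.05 for PLK1, 0.07 for CDK17, 0.10 for BUB1 and 0.11 for NUF2 and KIF18A. With the authors' constant, the single pairs A and B of PLK1 gave -0.02 and 0.12, those of CDK17 0.16 and -0.03, and those of BUB1 0.17 and 0.02. For CENPO they gave 0.30 and 0.33, for CDK2 0.25 and 0.31, and for CDKN2D 0.31 and 0.25. The 3 lowest fractions thus differed more between pairs than the 3 highest. Further in this was mixed: NUF2 gave 0.10 and 0.13 and KIF18A 0.16 and 0.07, against 0.21 and 0.31 for MAD2L2.

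**Figure D5:**
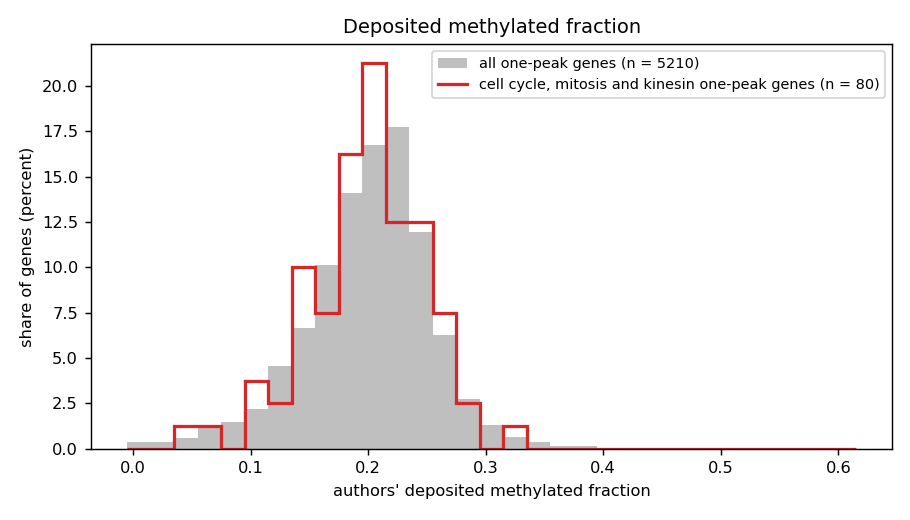
Share of genes (percent, vertical) by the authors' deposited methylated fraction (horizontal), for all 5210 one-peak genes (grey) and the 80 one-peak members (red line). Both are centred on a median of 0.21, and 77 of the 80 members lie between 0.10 and 0.30.

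The fractions depended on the constant. Without it, the members' median fraction was -0.03, and 57 of 80 (71.2%, against 68.4% of all one-peak genes) were below 0, that is, higher in the supernatant. Over non-m1A genes with a mean intensity of at least 32, the ratio averaged 1.05. With that as the divisor the median was 0.03 and 30 of 80 (37.5%, against 34.2%) were below 0. A ratio of 0.79, which a fraction of 0.21 would give without a divisor, lay below the whole 95% limma interval in 66 of the 80 one-peak members (82.5%, against 71.9% of all one-peak genes). This count was 46 (57.5%, against 49.0%) after recentring on the non-m1A genes and 58 (72.5%, against 61.8%) after quantile normalization. With the column letter fitted as a block it was 79 (98.8%, against 94.7%). How the deposited columns were scaled to each other is not stated, and the intervals cover only the spread between these columns.

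The 13 non-m1A members were set beside the peak-bearing ones, but the 2 kinds of genes differ in more than the peak. Lowest input intensities were 38.5 over all one-peak genes and 0.14 over all non-m1A genes. No one-peak gene had a mean ratio above 1.29, the value of the authors' constant, whereas log2 changes of non-m1A genes reached 4.84. The median log2 change of the non-m1A members was 0.02, from -0.15 (CCNO) to 0.18 (CCNG1), and that of the 80 one-peak members was 0.04. Both sets had 0 calls. Groups did not overlap in 1 lower (CCNO) and 0 higher of the 13, against 6.94% and 19.5% of all non-m1A genes. Of the 80 one-peak members, 3 were lower and 21 higher without overlap, against 6.24% and 15.9% of all one-peak genes. Over the whole table the medians were 0.07 for non-m1A genes and 0.04 for one-peak genes.

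Genes of the same pathways that the symbols do not catch were listed from general knowledge. Of 33 regulators of G1 and S phase, 23 were in the table, with a median log2 change of 0.07. Of 41 other kinetochore, spindle and cytokinesis genes, 29 were in it (0.04), of 20 cohesin and condensin genes 14 (0.03), and of 29 dynein, dynactin and kinesin light chain genes 13 (0.04). In each list limma called 0 lower and 0 higher at an adjusted p under 0.05, and 0 at an unadjusted one. FBXW7, a ubiquitin ligase subunit that targets cyclin E, stood at 0.30 ± 0.19 (SE), CUL1, a scaffold of the same ligases, at -0.12 ± 0.10, and SMC3, a cohesin subunit, at -0.14 ± 0.11. KLC1, a kinesin light chain, stood at -0.16 ± 0.11, and KIFC1, a spindle motor, at -0.15 ± 0.14.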

How the data were processed

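Inputs and supernatants of HepG2 RNA were compared in the deposited gene table. Per the file headers it holds linear intensity values in 4 columns. Per the submitters' processing notes RMA was used, with no version given, and the sources used here do not say how these intensity values were summarised. The deposited ratio and fraction columns are the authors'; recomputed corrected ratios of the members came within 0.00491 of them. The deposited log2 value table was not used, because no table pairing its probe sets with genes was used here.

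Log2 intensities, with no offset or filter, were fitted without pairing in limma 3.58.1 (R 4.3.3, lmFit and eBayes) on all 6434 genes, with Benjamini-Hochberg adjustment over all of them. Python 3.11.15, NumPy 2.4.6, pandas 2.3.3, SciPy 1.17.1 and matplotlib 3.10.9 were used. The fit was checked on simulated data with independent columns and planted changes larger than any member's estimate. That check does not cover changes as small as those of the members. The number of arrays limits the precision. The members, the lists and the tests were chosen with earlier results of these data known. Values in every column are given for the 6 highest and 6 lowest log2 changes, the 4 largest among non-m1A members, the 4 highest and 4 lowest fractions, and the landmark genes in the table. Others were named after their values were seen. Alternatives were a replicate block, an offset of 32, a floor of 32, 2 other scalings, a trended prior, other divisors and each column left out.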

Additional observations from a re-analysis of the deposited data

How the results depend on the processing

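The counts of members called, 0 lower and 0 higher, were 0 in all 10 alternatives, as were those of the 40 members given in every column, whose lowest adjusted p over the alternatives was 0.347 by limma. Of these 40, 16 kept their sign in every alternative that tested them (10, or 9 for CENPI, which is under the floor of 32) and 24 changed it in at least 1. Sizes moved more: over the alternatives CDK17 ran from 0.04 to 0.48, PLK1 from 0.13 to 0.46, CENPO from -0.31 to -0.05, BUB1 from 0.14 to 0.28, CDK2 from -0.17 to -0.04, CCNO from -0.22 to -0.09 and NUF2 from 0.13 to 0.21. KIF18A ran from -0.06 to 0.45, MAD2L1 from -0.03 to 0.37, CCNG1 from -0.04 to 0.39, CENPK from -0.03 to 0.32 and CCND3 from -0.21 to 0.43. The members' median log2 change of 0.03 was 0.03 with the replicate block, 0.01 after quantile normalization and -0.03 after recentring on the non-m1A genes. Leaving out 1 column gave 0.02 to 0.05. By construction the replicate block, the trended prior and the floor of 32 cannot alter the log2 change of a gene they test. Signs and sizes kept under them were therefore fixed in advance. The median fraction of 0.21 was -0.03 without a divisor, 0.03 with a divisor of 1.05 and 0.20 from pair B alone. The percentile of the members' input level was 69.4 to 69.7 with 1 input left out. The non-overlap counts of 4 lower and 21 higher became 18 and 4 after recentring and 13 and 11 after quantile normalization, alternatives added after the data were seen; by construction both shift the columns against each other.

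Same-lettered columns deviated from their group means together, with a correlation of 0.784 over the members. It was 0.451 over all genes and 0.695 over those with a mean intensity of at least 32. Nothing says that a letter marks a shared culture or day. The replicate block, with the letter as the block, called 0 members, and at an unadjusted p under 0.05 it gave 0 lower and 2 higher, NUF2 and PLK1 (2.15%, against 4.17% of all genes). Without input A, 4 members were higher at an unadjusted p under 0.05 (4.3%, against 7.83%), CCNG1, CDC73, CDK17 and MAD2L1, and without input B 2 were, CCND3 and PLK1 (2.15%, against 3.5%). With 2 columns a group, the median half-width of the 95% interval, 0.272 on the log2 scale in the fit without pairing, limits what that fit could show.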

Other observations

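One-peak members were also split by brightness. The 52 one-peak members brighter than the median one-peak gene had a median log2 change of 0.03 and a median deposited fraction of 0.21 in the authors' deposited table, and the 28 at or under it had 0.08 and 0.18. All one-peak genes split at the same intensity gave 0.02 and 0.06 for the change and 0.21 and 0.19 for the fraction, 2605 genes on each side. The difference was not tested.

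The 14 members listed with a main role outside the cell cycle engine include the Mediator genes CCNC, CDK8 and CDK19 and the splicing genes CCNL1 and CCNL2. They had a median log2 change of 0.06, from -0.06 (CCNL1) to 0.26 (CDK17), with 0 called by limma. Members left off the list, such as CCNO, MAD2L2 and KIF5B, also do other work, so this median depends on the listing.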
